A study of Homo sapiens with 15 samples.

Results

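The 143B line is an established, thymidine kinase-deficient human osteosarcoma line derived from HOS cells, and it was cultured in 2 formats. Cells grown as floating spheres were called osteosarcoma stem cells (OSC), and cells grown attached to plastic were called non-OSC. The comparison of OSC with non-OSC uses 6 of the 15 libraries of the series, 3 of each format, and the genes whose counts passed the filter on low values, 14287 of 62700. Both formats carried the wild-type genotype by the labels, without any construct. The spheres were kept in serum-free DMEM/F12 with B27 supplement lacking vitamin A, GlutaMAX, EGF and basic FGF, and the adherent cells in DMEM with fetal bovine serum and sodium pyruvate. The format, the basal medium, the serum and the growth factors therefore changed together, and their parts in any difference cannot be told apart. Both formats come from a single line, and nothing in the labels says whether the 3 libraries of a format came from separate cultures, so the p-values measure only the spread between these libraries.

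Sphere culture is used to enrich tumor cells that survive without attachment and renew themselves. Attached cells receive signals from integrins, the actin cytoskeleton and serum, which drive growth, entry into S phase and transcription through YAP/TAZ and SRF, whereas cells within an aggregate touch each other and their own matrix and receive oxygen and nutrients only by diffusion. A sphere and a monolayer of one line can therefore differ in programs of growth, stress, matrix and adhesion.

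After rounding, an OSC library held 7992499 to 9770022 counts and a non-OSC library 9240947 to 10495051, and the first principal component, which separated the formats, held 78.7% of the variance. The biological coefficient of variation between libraries of a format was 0.0548. No 2 libraries of a format agreed within sampling noise (chi-square over its degrees of freedom from 1.94 to 3.66), and each was kept as a sample. That spread does not show whether they came from separate cultures. The mesenchymal markers VIM, COL1A1, SPARC and FN1 had between 417 and 5848 CPM as means of a format, while IBSP was at 0, COL1A2 did not reach 1 CPM (counts scaled to a common library size after TMM normalization) in any library and ALPL lay between 0.809 and 3.06 CPM. RUNX2, the osteoblast lineage factor, had means of 17.3 CPM in OSC and 37.7 CPM in non-OSC, and 11 of 22 osteoblast lineage genes passed the filter, so osteoblast markers were present in part. The lymphocyte markers CD3D, CD3E and NKG7 were at 0 in every library. Of the 5 myeloid markers PTPRC and TYROBP were at 0 throughout, CD74 and LYZ had at most 6 counts in a library, and CD14 lay between 0.121 and 0.616 CPM in OSC and between 1.74 and 2.52 CPM in non-OSC. Of the 3 endothelial markers CDH5 was at 0 throughout, VWF had at most 4 counts, and PECAM1 lay between 0.911 and 1.85 CPM in OSC and between 0.441 and 0.547 CPM in non-OSC. The summed level of the 4 neural markers lay between 249.9 and 281 CPM in OSC and between 82.4 and 101.4 CPM in non-OSC, which TUBB3 made up almost alone, and that of the 4 fibroblast markers between 376 and 397 CPM against 177 and 192 CPM, nearly all of it PDGFRA.

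At an adjusted p under 0.05 (quasi-likelihood test of edgeR, adjusted over all genes after Benjamini and Hochberg), 9179 genes differed, which is 64.2% of those tested: 4644 were higher in OSC (32.5%) and 4535 lower (31.7%). A gene is said to have risen or fallen below only where it passed this test, and the direction is from non-OSC to OSC. A single number in parentheses after a gene is its log2 fold change in that direction. With a fold of at least 2 as well, 1450 genes rose (10.1% of those tested) and 788 fell (5.52%). At a fold of at least 8, 119 rose and 46 fell. The libraries of the formats did not overlap in 66.9% of the genes. The median log2 fold change over all genes was -0.01, so the changes of the gene lists below are read against a centre near 0. Their counts are read beside the 32.5% of all genes tested that rose and the 31.7% that fell. Because so many genes passed the test, a list is described by its counts and its median and was not tested as a set. The lists were chosen with earlier results of these data known, so their counts are a description. CPM are shares of a library, and in bulk RNA fewer cells that express a gene and less of its RNA per cell cannot be told apart.

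The genes with the largest changes were taken among those with a mean of at least 10 CPM over the 6 libraries and no overlap between the formats. The largest rise was that of MMP10 (ENSG00000166670.10, chromosome 11, 102770502 to 102780628 on GRCh38), a matrix metalloproteinase of the stromelysin type. It had 242, 221 and 205 CPM in OSC and 1.16, 0.328 and 0.331 CPM in non-OSC, where each library holds 3 to 12 of its counts. The change on the log2 scale was 8.44 (standard error 0.15, adjusted p = 6.62e-27) in edgeR's test. C2CD4A (chromosome 15, 62066977 to 62070917) had 30.2, 35.2 and 33.7 CPM in OSC and 0.386, 0.219 and 0.661 CPM in non-OSC, and SLC14A1 (chromosome 18, 45687025 to 45752520), a urea transporter, had 89.0, 89.2 and 88.7 CPM and 2.8, 1.75 and 1.87 CPM. Neither exceeded 3 CPM in an adherent library, and their log2 fold changes were 6.25 (standard error 0.23) and 5.35 (standard error 0.13).

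HMOX1 (chromosome 22, 35380361 to 35394214), which encodes heme oxygenase 1, the enzyme that opens the heme ring and frees its iron, had 328, 328 and 356 CPM in OSC and 11.5, 13.1 and 11.9 CPM in non-OSC (log2 fold change 4.79, standard error 0.07, adjusted p = 2.47e-31). It had the most reads in OSC of the 10 genes. The others were FOSB (4.92) and ATF3 (4.37), transcription factors of the AP-1 and ATF families, the growth factor PDGFB (4.77), the minor collagen COL19A1 (4.66), the calcium-regulated transcription factor NFATC2 (4.49) and the matricellular protein CCN3 (4.42). ATF3 had 50.2 ± 0.199 CPM in OSC against 2.41 ± 0.102 CPM in non-OSC (SD, n = 3), PDGFB 76.9, 84.3 and 83.2 against 3.76, 2.63 and 2.42 CPM, and NFATC2 39.1, 39.1 and 43.5 against 1.45, 1.86 and 2.09 CPM. In each of the 10 genes the lowest OSC library was far above the highest non-OSC library, where the choice itself required no overlap.

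The largest falls were smaller than the largest rises. MARCHF4 (ENSG00000144583.5, chromosome 2, 216257865 to 216372483), which encodes a membrane-bound ubiquitin ligase, had 1.23, 1.21 and 0.846 CPM in OSC and 30.5, 30.9 and 31.8 CPM in non-OSC (log2 fold change -4.8, standard error 0.19, adjusted p = 1.46e-20). HOPX (chromosome 4, 56647989 to 56681877), a homeodomain protein that does not bind DNA itself, had 1.36, 1.21 and 1.33 CPM against 23.3, 20.5 and 25.1 CPM and a log2 fold change of -4.14. The gene with the most reads in adherent cells among the 10 was CCN2 (chromosome 6, 131948176 to 131951372), the connective tissue growth factor, with 14.9, 19.0 and 17.5 CPM in OSC and 229.8, 227 and 221 CPM in non-OSC (log2 fold change -3.71, standard error 0.08, adjusted p = 9.06e-28). CCN2 and CCN3 belong to one family of matricellular proteins and moved in opposite directions.

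The other large falls included JPH2 (-3.71), a junctophilin that ties the plasma membrane to the endoplasmic reticulum, EFEMP1 (-3.7), the matrix protein fibulin-3, the cytokine IL1B (-3.42), RGS4 (-3.11), a brake on G protein signaling, and SLCO2A1 (-3.02), a prostaglandin carrier. IL1B had 2.34, 2.93 and 2.9 CPM in OSC and 30.1, 28.9 and 29.4 CPM in non-OSC. ITGBL1 fell by 3.88 on the log2 scale, but 70.5% of its exon bases lie opposite exons of FGF14. The library kit named by the labels is not its directional version, so reads of opposite strands cannot be told apart. The tenth was the antisense RNA TUBA1B-AS1, which had 2.96, 13.9 and 9.54 CPM in OSC and a wide spread of 79.2, 33.9 and 108 CPM in non-OSC. Its exons lie opposite TUBA1A and TUBA1B over 35.5% of their bases. Its call (adjusted p = 0.0198) was lost in the 4 fits without OSC replicate 1 or 3 or without non-OSC replicate 1 or 3, with fold changes from -3.05 to -2.63 on the log2 scale.

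Counted in CPM instead of fold, the largest gains were in NDRG1, MMP1, COL6A2, MT-RNR2 and VIM. NDRG1, a gene induced by hypoxia and differentiation, had 3140.2, 3221 and 3260.2 CPM in OSC and 341, 358 and 361 CPM in non-OSC (log2 fold change 3.18, standard error 0.04), and the interstitial collagenase MMP1 (chromosome 11, 102789401 to 102798160) had 3261, 3279 and 3320.5 CPM and 941, 969 and 951 CPM (log2 fold change 1.78). The rise of the intermediate filament gene VIM was smaller as a fold (0.57), from 3952 ± 120.0 to 5848 ± 203 CPM (SD, n = 3). The largest losses were in EEF1A1, ACTB, HSPA8, EEF2 and RPS2, which serve translation elongation, the cytoskeleton, protein folding and the ribosome. EEF1A1, the elongation factor that brings aminoacyl-tRNA to the ribosome, went from 14188, 13321 and 14442 CPM in non-OSC to 9023, 8946 and 9127 CPM in OSC (log2 fold change -0.63), and ACTB, beta-actin, from 6475, 6632 and 6821 to 3684, 3632 and 3820.0 CPM (log2 fold change -0.84). In both, every OSC library was below every non-OSC library.

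Genes of the translation apparatus were lower in spheres. Of 82 genes for cytosolic ribosomal proteins, 80 fell and 1 rose, with a median log2 fold change of -0.71 and, among the genes that fell, a largest fall of 1.05 for RPS28. Their summed expression was 53474 ± 1328 CPM in OSC and 85984 ± 2093 CPM in non-OSC, or 5.35% and 8.6% of the normalized library. The exception was RPL39L (0.28, adjusted p = 0.0394), a paralog of RPL39 whose call was lost, at an adjusted p of up to 0.222 in edgeR's test, without OSC replicate 2 or 3 or without non-OSC replicate 1 or 3. All 30 ribosome biogenesis genes fell (median -0.89), 11 of them at least 2-fold. Among them were NCL (-0.96), which encodes nucleolin and went from 2140.0 ± 59.9 to 1098 ± 7.48 CPM (SD, n = 3), NPM1 (-0.95), nucleophosmin, and the processome component UTP20 (-1.62), the largest fall of the list. RPS2 shares 27.4% of its stretches of 75 bases with transcripts of other genes, pseudogenes among them.

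The aminoacyl-tRNA synthetases, which charge tRNAs with amino acids, fell in 20 of 20 (median -0.72, from -0.23 for HARS1 to -1.33 for YARS1). GARS1, the one with the most reads, had 274, 263 and 265 CPM in OSC and 518, 505 and 533 CPM in non-OSC. No synthetase had overlapping libraries between the formats, which held for 66.9% of all genes tested.

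Cytosolic chaperones fold newly made proteins. Of 16 heat shock genes, 11 fell and 4 rose (median -0.46). HSPA8, the constitutive HSP70, had 1738, 1699 and 1721 CPM in OSC against 3209, 3088 and 3202 CPM in non-OSC (log2 fold change -0.88), HSP90AA1 fell by 0.91 on the log2 scale, and the mitochondrial chaperonin pair HSPD1 (-1.12) and HSPE1 (-1.07) fell most. The stress-inducible HSPA1A (0.99) and HSPA1B (0.8) rose, and 71.6% of the 75-base stretches of HSPA1A are shared with HSPA1B and other transcripts, so these genes are uncertain one by one. Of 37 proteasome subunit genes 27 fell, led by PSMD2 (-0.88), and 2 rose (median -0.22). Those that rose were PSMB8 (0.55) and PSMB9 (0.79), catalytic subunits of the immunoproteasome. The call of PSMB9 was lost without OSC replicate 2 (log2 fold change 0.54, adjusted p = 0.135).

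Nuclear genes for the respiratory chain and ATP synthase were also lower, with 66 of 78 OXPHOS subunit genes falling and 0 rising (median -0.46). ATP5F1B, a catalytic subunit of ATP synthase, went from 855 ± 2.87 to 521 ± 15.2 CPM (SD, n = 3), a log2 fold change of -0.71, and SDHB of complex II fell by 1.02 on the log2 scale. The 13 protein-coding genes of the mitochondrial genome had a median of -0.22. Of these, 9 fell, with the largest fall in MT-ATP6 (-0.45), and 1, MT-CO1, rose (0.28). Their summed expression was 23393 ± 687 CPM in OSC and 24048 ± 842 CPM in non-OSC. The mitochondrial rRNA MT-RNR2 rose, from 3758 ± 177 to 6049.7 ± 313 CPM (SD, n = 3), while all mitochondrial transcripts together took between 2.94% and 3.15% of the counts in OSC and between 2.69% and 2.88% in non-OSC.

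Genes for DNA replication fell. All 32 genes of the G1/S and replication list were lower in OSC, 10 of them at least 2-fold, with a median log2 fold change of -0.79. Their libraries did not overlap in any, against 66.9% of all genes tested. UHRF1, which carries DNA methylation through replication, had 98.2, 98.1 and 111 CPM in OSC and 313, 331 and 325 CPM in non-OSC (log2 fold change -1.66, standard error 0.05). The subunits of the MCM helicase ranged from -0.68 for MCM7 to -1.36 for MCM3. MCM3 had 120.5, 122 and 119 CPM in OSC and 302, 309 and 319.6 CPM in non-OSC, so that even its highest OSC library was well below its lowest non-OSC library. Mitotic genes were divided between falls and no call. Of 30 G2/M genes, 19 fell, led by the proliferation marker MKI67 (672 ± 24.4 to 368 ± 9.67 CPM, SD, n = 3, log2 fold change -0.87), while TOP2A (-0.01), CDK1 (0.05) and ASPM (0.09) did not pass the test. Without non-OSC replicate 1, CDK1 (0.13) and ASPM (0.16) did. UBE2C, the ubiquitin-conjugating enzyme of the anaphase-promoting complex, was the one G2/M gene that rose (0.89). The list median was -0.25.

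E2F transcription factors turn on many S phase genes through sites near the start. The letters TTTGGCGC, on either strand, were present in 8 of the 27 G1/S genes with a RefSeq promoter sequence (29.6%), against 0.652% of all 35116 promoters and 1.37% of tested genes, while 0.587% of genes at least 2-fold higher and 1.47% of those at least 2-fold lower held them. The promoter sequences run from 250 bases before to 50 bases after the gene start on GRCh38.p14 and were found for 10754 of 14266 tested symbols. The 3 members with a match and the largest falls are printed 5′ to 3′ on the gene's strand, with the matched letters in capitals, to show where such a site lies in genes that fell together. A match is a description of the sequence and not evidence of binding.
E2F2, chr1:23531248-23531295, minus strand: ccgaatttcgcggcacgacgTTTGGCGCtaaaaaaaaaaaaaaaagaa
MCM6, chr2:135876506-135876615, minus strand: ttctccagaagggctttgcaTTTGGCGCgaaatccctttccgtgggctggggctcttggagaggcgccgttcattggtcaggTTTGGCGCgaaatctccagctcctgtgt
CDC25A, chr3:48188434-48188481, minus strand: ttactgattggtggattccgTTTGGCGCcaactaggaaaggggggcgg
MCM6 holds 2 matches, beginning 152 and 90 bases before its start, and E2F2 and CDC25A hold 1 each, 42 and 44 bases before theirs. The log2 fold changes of these genes were -1.37, -1.33 and -1.21.

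Among 13 genes of D-type cyclins with their kinases, the inhibitors of these kinases and the RB family, 7 rose, 3 fell and 3 did not pass. Of 5 kinase inhibitors 4 rose. CDKN1A (chromosome 6, 36676460 to 36687337), which encodes p21, had 486, 513 and 528 CPM in OSC and 90.2, 92.9 and 98.4 CPM in non-OSC (log2 fold change 2.44, standard error 0.05, adjusted p = 2.19e-27). CDKN1B (0.98), CDKN1C (1.45) and CDKN2D (1.72), encoding p27, p57 and p19, rose as well, and CDKN2C, encoding p18, did not pass (-0.11). CDK4 (-0.78) and CDK6 (-0.77) fell, and 44.2% of the exon bases of CDK4 lie opposite TSPAN31. CCND1, cyclin D1, had 1174 ± 11.7 CPM in OSC and 1124 ± 20.3 CPM in non-OSC (SD, n = 3), and did not pass the test (adjusted p = 0.143). It passed with normalization by library size alone.

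Transcripts of replication-dependent histone genes went against the other S phase genes. Of 68 such genes only 19 passed the filter on low counts, and of these 14 rose, 11 of them at least 2-fold, and 1, H2AC20, fell (-0.81). H2BC21 had 24.5, 22.4 and 23.9 CPM in OSC and 4.34, 4.6 and 4.63 CPM in non-OSC (log2 fold change 2.38), and H2AC18 went from 11.7 to 52.0 CPM (2.16). All 75-base stretches of H2AC18 occur in H2AC19 or H2AC20, so its value and that of H2AC20 are uncertain one by one. All stretches of H3C15 and H4C15 and 96.2% of those of H4C14 also occur in other histone transcripts, and these 3 genes did not pass the test, apart from H4C14 without OSC replicate 1 (log2 fold change 1.31, adjusted p = 0.0386). Most messages of this class normally end in a stem-loop without a poly(A) tail, and the RNA selection is not given in the sources used here. Their summed level was low, 238 ± 8.13 CPM in OSC and 125 ± 9.49 CPM in non-OSC. H2BC12, with the most reads, rose by little (0.23, adjusted p = 0.025), its libraries overlapped, its call was lost at an adjusted p of up to 0.211 without OSC replicate 2 or 3 or non-OSC replicate 1 or 3, and 39.0% of its 75-base stretches occur in other histone transcripts.

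Targets of hypoxia-inducible factors outside the enzymes of glycolysis rose as a group, in a list that also holds PFKFB4, a regulator of glycolysis. HIF proteins accumulate when oxygen-dependent prolyl hydroxylases slow down and switch on genes for oxygen supply, pH control, matrix and mitophagy. All 24 genes of the list were higher in OSC, 19 at least 2-fold, with a median log2 fold change of 1.57. Their summed expression was 8058 ± 125 CPM in OSC and 2057 ± 9.34 CPM in non-OSC, a ratio of 3.92, and NDRG1 held the most reads. LOX (chromosome 5, 122063195 to 122078413), the lysyl oxidase that crosslinks collagen and elastin, had 574, 572 and 569.9 CPM in OSC and 33.0, 34.9 and 30.0 CPM in non-OSC (log2 fold change 4.13, standard error 0.06, adjusted p = 4.59e-32). ANGPTL4, a secreted inhibitor of lipoprotein lipase, had 310.5, 337 and 346 CPM against 40.6, 46.0 and 46.9 CPM (2.9). Both carbonic anhydrases of the list rose, CA12 from 28.0 to 171 CPM and CA9 from 0.316 to 8.23 CPM.

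The hypoxia list also spans oxygen sensing, mitophagy and collagen hydroxylation. The sensor hydroxylase EGLN3 rose by 2.24 and EGLN1 by 0.63 on the log2 scale. BNIP3 (1.17) and BNIP3L (1.36), receptors that mark mitochondria for autophagy, rose, as did the collagen prolyl hydroxylases P4HA1 (1.54) and P4HA2 (2.28). VEGFA, the vascular growth factor, had 503, 508 and 496 CPM in OSC and 276, 284 and 287 CPM in non-OSC, a smaller rise of 0.83. No member had overlapping libraries, which held for 66.9% of all genes tested.

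The core of the HIF site, ACGTG on either strand, was present in the promoter of 14 of 21 matched members (66.7%), against 21.4% of all promoters and 32.6% of tested genes. It was found in 31.4% of genes at least 2-fold higher and 31.3% of those at least 2-fold lower, nearly the same share in both directions. The members with a match and the largest rises are printed 5′ to 3′ on the gene's strand with the matched letters in capitals. CACGT is ACGTG read on the other strand.
CA9, chr9:35673890-35673934, plus strand: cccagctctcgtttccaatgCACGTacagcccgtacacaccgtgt
LOX, chr5:122078277-122078464, minus strand: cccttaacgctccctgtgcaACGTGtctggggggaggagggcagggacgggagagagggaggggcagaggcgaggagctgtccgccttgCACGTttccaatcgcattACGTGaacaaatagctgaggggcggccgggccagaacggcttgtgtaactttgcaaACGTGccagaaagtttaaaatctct
ANGPTL4, chr19:8363905-8363945, plus strand: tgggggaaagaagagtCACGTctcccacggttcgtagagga
The promoter of LOX with the most matches, among 3 listed for the gene, holds 4 of them between 185 and 42 bases before the start. CA9 holds 1 match, 18 bases before its start.

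Immediate early genes, which cells transcribe within minutes of growth factor, stress or calcium signals, formed the list with the highest median. Of 24 genes, 20 rose, 18 at least 2-fold, and the median log2 fold change was 1.69. FOS had 75.9, 73.4 and 74.9 CPM in OSC and 5.69, 5.8 and 6.83 CPM in non-OSC (3.61), JUND 194, 215 and 203 CPM against 17.7, 22.8 and 19.3 CPM (3.36), and JUN 981, 1076 and 1101 CPM against 454, 537 and 504 CPM (1.08). The orphan nuclear receptors NR4A1 (1.82), NR4A2 (3.95) and NR4A3 (2.81) rose together, as did EGR1 (1.45), EGR2 (2.68) and EGR3 (1.75). IER3, with the most reads of the list, went from 464 ± 20.5 to 1436 ± 54.5 CPM (SD, n = 3). FOSL1, an AP-1 subunit of long-lasting ERK signaling, was the only member that fell (-0.92), from 695 ± 34.8 to 368 ± 19.2 CPM (SD, n = 3). MYC, IER2 and IER5 did not pass the test.

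The AP-1 letters TGACTCA, on either strand, occurred in the promoter of 1 of 17 matched immediate early genes, in 4.78% of tested genes, in 7.93% of genes at least 2-fold higher and in 6.26% of those at least 2-fold lower. The CRE letters TGACGTCA occurred in 1 of 17 as well, against 1.85% of all promoters and 3.88% of tested genes. They occurred in 3.91% of genes at least 2-fold higher and 3.13% of those at least 2-fold lower.

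Feedback genes of the ERK MAP kinase pathway were divided. Of 24 genes 15 rose and 5 fell, where 32.5% of all genes tested rose and 31.7% fell. Phosphatases that act mainly on JNK and p38 were among the largest rises, DUSP8 (log2 fold change 3.82, with 42.1, 50.9 and 44.9 CPM against 3.28, 3.72 and 2.75 CPM), DUSP10 (2.42) and DUSP16 (2.0). DUSP6 (-0.41), DUSP4 (-0.5) and DUSP7 (-0.72), which act on ERK, fell. The receptor kinase EPHA2 had the largest fall of the list (-1.69), and the Sprouty genes SPRY1 (1.72) and SPRY2 (1.64) rose.

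Genes of the NF-kB pathway and its cytokine targets rose in 23 of 29, 16 at least 2-fold (median 1.37), and fell in 4. PTGS2 (chromosome 1, 186671791 to 186680922), the inducible cyclooxygenase, had 487, 444 and 449 CPM in OSC and 26.1, 24.1 and 26.7 CPM in non-OSC (log2 fold change 4.16, standard error 0.06, adjusted p = 2.47e-31). CXCL8, a neutrophil chemokine, went from 8.86 to 82.5 CPM (3.2), IL11 from 31.1 to 165 CPM (2.41) and IL6 from 0.678 to 18.7 CPM (4.72). Inhibitors that NF-kB itself induces rose too, NFKBIA by 2.09 and TNFAIP3 by 2.93 on the log2 scale, and so did RELB (1.81) and NFKB2 (1.69) of the non-canonical branch. The 4 that fell were cytokines, IL1B (-3.42), IL1A (-0.8), IL24 (-2.34) and CSF3 (-0.92). Interleukin-1 genes and interleukin-6 therefore moved in opposite directions.

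Collagens form the fibres and networks of the extracellular matrix. Of 28 collagen genes that passed the filter, 20 rose, 15 at least 2-fold, and 3 fell (median 1.16), and their summed expression was 15385 ± 541 CPM in OSC and 6538 ± 253 CPM in non-OSC. The chains of collagen VI, which forms beaded filaments near cells, held the most reads. COL6A2 had 3203, 3436 and 3567 CPM in OSC and 1084, 1281 and 1214 CPM in non-OSC (1.51), COL6A1 2341, 2491 and 2513 CPM against 619.7, 689 and 662 CPM (1.9), and COL6A3 rose less (0.67). The basement membrane chains COL4A1 (1.59) and COL4A2 (1.31) and the anchoring fibril collagen COL7A1 (log2 fold change 2.36, from 199 to 1019 CPM) rose also, as did COL5A3 (3.29) and COL1A1 (1.34), while COL1A2, the partner chain of COL1A1, stayed under 1 CPM in every library. COL17A1 (log2 fold change -3.37, from 6.04 to 0.568 CPM) and COL16A1 (-0.83) fell. COL27A1 passed narrowly (-0.16, adjusted p = 0.0444), its libraries overlapped, and it lost the call (adjusted p up to 0.310) without any 1 of the 3 OSC libraries or without non-OSC replicate 2 or 3. COL16A1 lost it in the same 5 fits (adjusted p up to 0.150).

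Genes that modify collagen followed in part, with 13 of 19 higher and 3 lower (median 0.42). LOX, P4HA2, P4HA1 and PLOD2, which are also in the hypoxia list, were the 4 largest rises, whereas SERPINH1, the collagen chaperone HSP47, did not pass the test (191 ± 13.0 and 181 ± 12.4 CPM, SD, n = 3). LOXL3 fell (-0.82, adjusted p = 0.0159) although its libraries overlapped, and not without OSC replicate 3 or non-OSC replicate 1 or 3 (adjusted p up to 0.0889).

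Matrix proteases and their inhibitors rose in 19 of 26 and fell in 7. Beside MMP10 and MMP1, the gelatinases MMP2 (log2 fold change 2.5, from 28.4 to 160.4 CPM) and MMP9 (1.4), the collagenase MMP13 (2.09) and the aggrecanase ADAMTS1 (3.05) rose. The urokinase gene PLAU had the largest fall, with 84.6, 80.5 and 73.4 CPM in OSC and 511, 499 and 548 CPM in non-OSC (-2.71, standard error 0.06), while its receptor PLAUR (0.45) and the tissue activator PLAT (0.47) rose. Exons of C10orf55 lie opposite 31.0% of the PLAU exon bases. MMP9 is an osteoclast marker in tumor tissue, as is CTSK, which rose from 1.82 to 8.17 CPM, and the other marker of that list, ACP5, stayed under 1 CPM in every library.

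Matrix glycoproteins were divided, with 15 of 26 higher and 10 lower. TNC, tenascin C, had 340.3, 333 and 338 CPM in OSC and 58.7, 55.4 and 55.8 CPM in non-OSC (2.57), and the heparan sulfate proteoglycans SDC4 (2.02), HSPG2 (1.92) and GPC1 (1.11) rose. THBS1, thrombospondin 1, had 56.8, 61.6 and 63.8 CPM against 383, 356 and 385 CPM (-2.63), and FN1, fibronectin, with the most reads of the list, fell by 0.38 on the log2 scale, from 3646 ± 47.6 to 2801 ± 74.5 CPM (SD, n = 3). LTBP1 rose (1.48) and LTBP2 fell (-1.42), although both encode latent TGF-beta binding proteins.

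Among integrins, laminins and focal adhesion genes, 19 of 30 rose and 7 fell (median 0.53). ITGAV (log2 fold change 1.66, with 455, 427 and 433 CPM against 150.1, 137 and 129 CPM), ITGB8 (2.55) and the hemidesmosomal ITGB4 (2.58) with its partner ITGA6 (0.93) rose. ITGB1, the common partner chain, fell slightly (-0.16, adjusted p = 0.00158), and ITGA4 (-1.54), LAMB3 (-1.39) and the focal adhesion scaffold PXN (-0.75) fell more. Of the focal adhesion kinases and linkers, ILK (0.6) rose and PTK2 (-0.04) did not pass the test. Exons of TAF10 and other genes lie opposite 78.5% of the exon bases of ILK, so its value is uncertain.

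Guidance cues and receptors of axons, many of which also act on migrating tumor cells, rose in 28 of 38 and fell in 7 (median 0.68). SEMA3A had 106 ± 5.47 CPM in OSC and 25.8 ± 2.92 CPM in non-OSC (SD, n = 3, log2 fold change 2.04), and the plexins PLXNB1 (1.93), PLXNA3 (1.69) and PLXNB2 (1.17) and the netrin receptors UNC5B (2.24) and DCC (1.1) rose. PLXNA2 went the other way, from 257 ± 7.64 to 56.6 ± 4.13 CPM (SD, n = 3, log2 fold change -2.18). Of 24 cadherins and protocadherins tested, 12 rose and 6 fell. CDH6 (log2 fold change 1.6, from 49.8 to 151 CPM) and DCHS1 (1.12) rose, N-cadherin CDH2 rose by 0.49, and CDH4 fell (-1.62). PCDHGC3 (0.58), with the most reads of them, shares 40.1% of its exon bases with other genes of the gamma cluster.

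YAP and TAZ enter the nucleus in spread cells under tension and activate genes with TEAD factors. Of 27 target and pathway genes, 14 fell, 8 at least 2-fold, and 8 rose (median -0.54). Among all genes tested 31.7% fell and 32.5% rose. Among the best known targets, CCN1 had 56.3, 49.3 and 48.3 CPM in OSC and 149, 159 and 157 CPM in non-OSC (-1.6), AMOTL2 13.7, 15.7 and 17.9 CPM against 74.3, 75.5 and 85.4 CPM (-2.31), and AXL, a receptor kinase, fell by 1.49 on the log2 scale. ANKRD1 had 0 to 3 counts in an OSC library and 47 to 53 in a non-OSC library, too few in OSC for a fold. IGFBP3 (1.42), GADD45A (1.56) and F3 (1.45) rose, and so did the messages of the coactivators themselves, YAP1 (log2 fold change 0.56, with 479.6, 457 and 446 CPM against 324, 309 and 302 CPM) and WWTR1 (0.72), which encodes TAZ.

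The TEAD letters GGAATG, on either strand, were present in the promoter of 10 of 19 matched members of this list (52.6%), against 14.8% of tested genes, 15.5% of genes at least 2-fold higher and 15.8% of genes at least 2-fold lower. The matched members with the largest falls are printed 5′ to 3′ on the gene's strand with the letters in capitals, and CATTCC is the motif on the other strand.
ANKRD1, chr10:90921190-90921327, minus strand: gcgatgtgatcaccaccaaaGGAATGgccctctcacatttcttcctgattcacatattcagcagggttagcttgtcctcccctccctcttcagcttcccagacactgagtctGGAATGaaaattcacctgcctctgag
CCN2, chr6:131951442-131951561, minus strand: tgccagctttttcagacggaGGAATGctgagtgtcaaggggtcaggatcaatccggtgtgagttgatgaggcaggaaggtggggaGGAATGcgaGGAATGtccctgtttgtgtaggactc
AMOTL2, chr3:134374491-134374536, minus strand: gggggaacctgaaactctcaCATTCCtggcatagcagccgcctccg
CCN2 holds 3 matches between 169 and 95 bases before its start, ANKRD1 holds 2 and AMOTL2 holds 1.

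Genes of actomyosin and targets of SRF fell in 15 of 28 and rose in 8 (median -0.18). Over all genes tested 31.7% fell and 32.5% rose. Beside ACTB, the falls included ACTG1 (-0.54), the filamin FLNA (log2 fold change -0.35, 5168 ± 224 to 4058 ± 117 CPM, SD, n = 3), VCL, vinculin (-0.58), and TAGLN (-1.77), while MYH9 (-0.05) passed the test only without non-OSC replicate 1 (-0.09). ACTA2, smooth muscle actin and a pericyte marker, rose from 4.37 ± 0.611 to 21.6 ± 1.14 CPM (SD, n = 3, log2 fold change 2.31). The exons of ACTA2 lie opposite ACTA2-AS1 and FAS over 36.0% of their bases, and the other pericyte markers RGS5 and PDGFRB did not exceed 3.06 CPM in any library.

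TGF-beta and BMP targets and modulators were divided, 12 higher and 8 lower of 25. The 8 lower are near the share of all genes tested, of which 32.5% rose and 31.7% fell. The BMP antagonist NOG rose most (log2 fold change 3.46, with 57.4, 65.3 and 69.9 CPM against 5.01, 5.03 and 7.49 CPM), with the activin antagonist FST (2.48), the activin chain INHBA (1.8) and TGFBI (1.44). The BMP targets ID1 (-0.85) and ID3 (-1.62) and another BMP antagonist, GREM1 (-2.31), fell.

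Sterol synthesis genes, which SREBP2 switches on when membrane cholesterol is low, rose in 20 of 24 and fell in 1 (median 0.45). HMGCS1 (chromosome 5, 43287470 to 43313512) had 188, 181 and 179 CPM in OSC and 69.3, 53.7 and 57.4 CPM in non-OSC (1.6), and SC5D rose by 1.52 on the log2 scale. FDFT1, squalene synthase, fell (-0.26). Of fatty acid synthesis genes, 9 of 15 rose and none fell (median 0.19), with the desaturases FADS2 (0.76) and FADS1 (0.56) at the top and SCD not passing the test (1259 ± 20.9 and 1321 ± 21.7 CPM, SD, n = 3). Targets of the oxysterol receptor LXR respond to surplus sterol. In a list of LXR and lipid efflux genes, which includes the receptor genes NR1H2 and NR1H3, 7 of 9 rose. Among them were ABCG1 (1.56), APOE (1.33) and SMPDL3A (2.56), but ABCA1 did not pass (86.7 ± 7.03 and 89.7 ± 6.78 CPM, SD, n = 3). The SREBP letters TCACNCCAC were found in the promoter of 1 of 18 sterol genes and in 1.38% of tested genes.

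Chaperones of the endoplasmic reticulum and targets of the unfolded protein response rose in 23 of 24, with 1 fall, SEC61B (-0.16, adjusted p = 0.0474), which lost the call in every fit without a library but the one without non-OSC replicate 1 (adjusted p up to 0.134). The list median was 0.61. HSPA5, the chaperone BiP, had 1124, 1111 and 1119 CPM in OSC and 524, 534 and 527 CPM in non-OSC (1.08), and its cochaperone DNAJB9 had the largest rise, from 7.79 ± 0.403 to 44.7 ± 1.6 CPM (SD, n = 3, log2 fold change 2.52). HERPUD1 (1.8) and SYVN1 (1.02) of ER-associated degradation, the sensor ERN1 (1.14) and XBP1 (0.83) rose too.

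Targets of ATF4, the transcription factor of amino acid and integrated stress, moved both ways. Of 25 genes 9 rose and 13 fell, where 32.5% of all genes tested rose and 31.7% fell. Of the 8 that fell at least 2-fold, 7 serve amino acid or one-carbon supply, and the other is CHAC1, a glutathione-degrading enzyme (-1.08). PSAT1 had 100.2, 104 and 104 CPM in OSC and 428, 379 and 403 CPM in non-OSC (-1.98), PHGDH 138, 133 and 139 CPM against 391, 417 and 433 CPM (-1.6), both of serine synthesis, the asparagine synthetase ASNS fell by 1.65 and the leucine carrier SLC7A5 by 1.48 on the log2 scale. Those that rose included regulators of the stress response and secreted proteins, GDF15 (1.82), DDIT3 (log2 fold change 1.78, 4.95 to 17.0 CPM), DDIT4 (1.38), PPP1R15A (1.27), TRIB3 (0.76) and SESN2 (0.43), while ATF4 itself fell (-0.38). The ATF4 letters TGATGNAA were in the promoter of 4 of 21 matched members, ASNS, CHAC1, SLC3A2 and SLC7A1. They were in 3.62% of all promoters and 2.67% of tested genes, with 3.33% of genes at least 2-fold higher and 4.97% of those at least 2-fold lower.

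**Figure D1:**
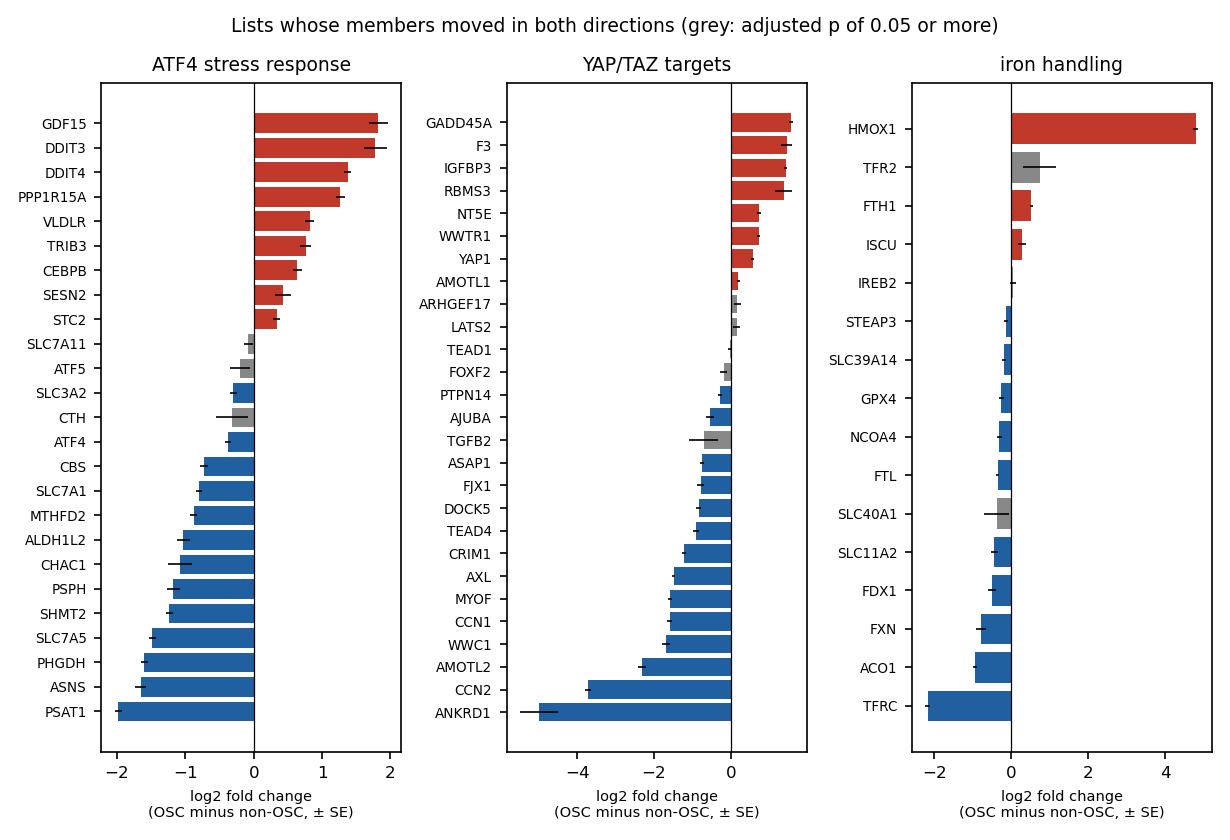
Log2 fold change, OSC minus non-OSC, of each member of the ATF4, YAP/TAZ and iron lists, with bars for the estimate and error bars for its standard error. Red bars rose, blue bars fell and grey bars did not pass an adjusted p of 0.05. The amino acid genes PSAT1 (-1.98) and ASNS (-1.65) lie opposite DDIT3 (1.78) and GDF15 (1.82), and the bar of ANKRD1 rests on at most 3 counts in each OSC library.

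HMOX1 had by far the largest rise among antioxidant genes. Of 19 NRF2 targets and redox genes, 6 rose and 8 fell (median -0.08), and beside HMOX1 only OSGIN1 changed at least 2-fold (1.57). The 6 that rose are near the share of all genes tested, of which 32.5% rose and 31.7% fell. TXNRD1 (-0.53) and GCLM (-0.3) fell and NQO1 did not pass the test (0.12), although it did without OSC replicate 3 or non-OSC replicate 3 (up to 0.17). In the iron list, 10 of 16 genes fell and 3 rose. TFRC, the transferrin receptor, had 92.4, 83.3 and 81.9 CPM in OSC and 407, 376 and 381 CPM in non-OSC (-2.18, standard error 0.06, adjusted p = 2.45e-25), and the ferritin heavy chain FTH1 rose (0.52) while the light chain FTL fell (-0.36). The exons of FTH1 lie opposite BEST1 over 63.2% of their bases. Metallothioneins, which bind zinc and copper, were mixed. MT2A fell from 915 ± 71.7 to 363 ± 24.7 CPM (SD, n = 3, log2 fold change -1.33) and MT1E fell (-1.42), whereas MT1X (1.08) and MT1F (1.34) rose. The list median (-0.01) turned positive in 5 other settings, among them those without OSC replicate 3 (0.05) and without non-OSC replicate 2 (0.00).

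Lysosome and autophagy genes rose in 18 of 30 and fell in 2 (median 0.27). GABARAPL1 (2.44) and WIPI1 (2.1), which serve autophagosome formation, and the cargo receptor SQSTM1 (log2 fold change 1.56, with 476, 489.9 and 490.5 CPM against 165, 168 and 162 CPM) led, and PSAP, the saposin precursor, rose from 444 ± 14.4 to 969.7 ± 18.2 CPM (SD, n = 3). NPC2 (-0.66) and LAMP1 (-0.28) fell.

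Genes that insulin and growth factor signals hold down through FOXO, together with insulin-like growth factor binding proteins, rose in 17 of 23 and fell in 3 (median 0.97). IGFBP5 had 950.0, 938 and 978 CPM in OSC and 139, 147 and 143 CPM in non-OSC (2.74, standard error 0.05, adjusted p = 2.19e-30). CCNG2 (2.23), CITED2 (2.28), IRS2 (1.63) and TXNIP (1.5) rose, IRS1 fell (-0.84), and IGFBP6 (-1.77) went against IGFBP3 and IGFBP5.

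Genes that respond to glucocorticoids were higher in 9 of 15 and lower in 5. TSC22D3, known as GILZ, had 109.5, 108 and 111 CPM in OSC and 19.9, 17.8 and 22.4 CPM in non-OSC (2.45), and SGK1 (2.17), PER1 (2.01) and ERRFI1 (1.66) rose, while FKBP5 (-0.79), another classical target, fell. Clock genes rose in 10 of 16 and fell in 2, with the repressors BHLHE41 (2.31) and BHLHE40 (1.6, also in the hypoxia list) among the rises and PER3 (-0.85) the largest fall. CLOCK did not pass the test (0.07).

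Retinoic acid, which cells make from vitamin A, acts through nuclear receptors of the RAR family. Of 13 retinoid genes tested, 7 fell, 6 at least 2-fold, and 1, CRABP2, rose (0.94). DHRS3, a retinaldehyde reductase that retinoic acid induces, had 12.7 ± 1.91 CPM in OSC and 95.8 ± 7.32 CPM in non-OSC (SD, n = 3, log2 fold change -2.91, standard error 0.10, adjusted p = 5.26e-22), and the receptor RARB, also induced by its ligand, had 0.493, 1.42 and 1.09 CPM against 13.9, 14.1 and 14.7 CPM (-3.78). TGM2 (-2.14) and the enzymes that make retinoic acid, ALDH1A3 (-1.41) and ALDH1A2 (-1.0), fell too, while RARA and RARG did not pass. The sphere medium contained no vitamin A in its supplement and no serum, and the part of either cannot be told apart from that of the format.

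Class I antigen presentation rose in 14 of 18 genes, with 1 fall (median 0.66). HLA-B rose by 1.63 and B2M by 0.6 on the log2 scale, and TAP1 rose (1.11) while its partner TAP2 fell (-0.92). HLA-B shares 26.3% of its 75-base stretches with transcripts of other genes, HLA-C among them. Interferon-responsive genes rose in 14 of 26 and fell in 4 (median 0.59). OASL rose from 1.09 to 7.62 CPM and IRF7 from 5.65 to 19.7 CPM, and IFITM3, with the most reads, fell (-0.27). The interferon-stimulated response element (ISRE) was found in 12 of 19 matched members, in 3.57% of all promoters and in 3.84% of tested genes.

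Targets of p53 rose in 14 of 23 and fell in 3 (median 0.85). Beside CDKN1A, the rises included TP53INP1 (2.36), the death gene BBC3, encoding PUMA (2.2), and MDM2 (log2 fold change 0.85, with 153, 138 and 141 CPM against 84.8, 73.0 and 80.9 CPM), while BAX (-0.32) fell and several standard targets such as ZMAT3 (0.16) and XPC (-0.03) did not pass. Genes of the BCL2 family and death receptors rose in 19 of 26. They included both death-promoting genes, BMF (1.98) and PMAIP1 (1.06), and protective ones, MCL1 (1158 ± 13.2 to 2005 ± 20.5 CPM, SD, n = 3), XIAP (0.91) and BIRC3 (2.69). BCL2 (-0.42) and BCL2L1 (-0.77) fell, BCL2 with overlapping libraries and not without OSC replicate 3 or non-OSC replicate 1 (adjusted p up to 0.122).

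Markers of stemness did not move together. Of 25 markers listed, 7 were removed by the filter on low counts, among them POU5F1, NANOG and PROM1. Of 18 tested, 9 rose, 5 fell and 4 did not pass (median 0.17). At least 2-fold, 5 rose and 2 fell. The pluripotency factor KLF4 rose most, with 40.5, 39.6 and 43.5 CPM in OSC and 7.33, 9.85 and 9.59 CPM in non-OSC (log2 fold change 2.21), and SOX2 had 25.3, 26.8 and 29.0 CPM against 11.5, 10.8 and 10.8 CPM (1.29). NGFR (1.74), ABCG1 (1.56) and CXCR4 (1.52) also rose at least 2-fold. The hyaluronan receptor CD44 rose by 0.2 on the log2 scale, and ITGA6 (0.93) and NT5E (0.73) rose more, while ENG (-0.67), ABCG2 (-1.59), KIT (-2.35) and EZH2 (-0.42) fell. Among the 11 of 22 osteoblast lineage genes that passed the filter, 7 rose and 3 fell. TNFRSF11B, the decoy receptor osteoprotegerin, had 169.7, 158 and 176 CPM in OSC and 16.2, 16.6 and 19.0 CPM in non-OSC (3.28), and SPP1, osteopontin, 523, 503 and 509.8 CPM against 108, 97.6 and 95.0 CPM (2.35). The lineage factors RUNX2 (-1.11) and DLX5 (-1.03) fell. The mesenchymal transcription factors changed little, ZEB1 by 0.22 and SNAI2 by -0.42, with TWIST1 and SNAI1 not passing, while the keratin pair KRT8 (-2.43) and KRT18 (log2 fold change -1.95, 1044 ± 67.8 to 271 ± 3.16 CPM, SD, n = 3) fell.

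Signaling families changed member by member, and their counts stand beside 32.5% of all genes tested that rose and 31.7% that fell. In the Wnt list 13 of 29 genes rose and 10 fell, with the ligands WNT7B (1.21) and WNT5A (1.12) higher and WNT5B (-2.33) and the inhibitor SFRP1 (537 ± 16.3 to 179 ± 5.14 CPM, SD, n = 3, log2 fold change -1.58) lower. In the Notch list 10 of 21 rose, among them the ligand JAG1 (0.91) and NOTCH3 (1.42), and 5 fell, among them the target genes HES1 (-0.24), HEY1 (-0.67) and NRARP (-1.29). The call of HES1 was lost without OSC replicate 1 or 3 or non-OSC replicate 2 (adjusted p up to 0.107). The median log2 fold change of the Notch list, 0.23, became -0.07 without OSC replicate 2. Of 34 receptor kinases and growth factors, 16 rose and 13 fell. The PDGF ligands PDGFB (4.77), PDGFA (1.86) and PDGFC (0.91) and the receptor PDGFRA (374, 389.9 and 369.8 CPM against 185, 171 and 175 CPM, log2 fold change 1.09) rose, IGF2 rose (2.59), and EGFR, whose ligand was in the sphere medium, fell (-0.41).

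Of 197 solute carriers tested, 78 rose and 48 fell, where 32.5% of all genes tested rose and 31.7% fell. Beside SLC14A1, the largest rises at 10 CPM or more were SLC16A6 (3.84), SLC2A3 (2.74), a high-affinity glucose carrier, SLC7A8 (2.55) and the inositol carrier SLC5A3 (824, 795 and 777 CPM against 214, 192 and 196 CPM, log2 fold change 1.99). The 354 ZNF genes are a broad family of zinc finger proteins, of which 64 rose and 79 fell (median -0.06), the largest rise at 10 CPM or more being that of ZNF395 (1.48), which shares 32.2% of its 75-base stretches with FBXO16. Of 1277 lncRNA genes tested, 134 rose and 137 fell at least 2-fold (10.5% and 10.7%), against 10.1% and 4.83% of 12704 protein-coding genes. MIAT rose most among those at 10 CPM or more (log2 fold change 3.5, with 18.6, 18.2 and 20.7 CPM against 1.45, 2.85 and 0.771 CPM), and 99.4% of the 75-base stretches of the second, ENSG00000289316, lie in NDRG1. Over protein-coding genes, the median log2 fold change went from -0.10 in the fifth with the shortest exons to 0.07 in the fifth with the longest, and from 0.09 in the fifth with the lowest expression to -0.07 in the highest. The median of the chromosomes, X included, lay between -0.07 and 0.14.

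Limits of counting touch some named genes. Without a directional library, exons of another gene lie opposite 41.3% of the exon bases of BCL2L1, 38.9% of IER3, 37.7% of HMGCS1, 32.1% of ALDH1A3 and 24.6% of VIM. The same share is 52.2% for IER2, 41.6% for IL24, 35.7% for CA9, 34.1% for TAGLN and 31.6% for DDIT3. The strand setting of the counting is not given, so reads of both strands may enter their values. Among mitochondrial genes, 36.6% of the 75-base stretches of MT-CO1 and 28.0% of those of MT-ATP6 occur in other annotated transcripts. So do 53.7% of the stretches of EGLN1, 43.5% of ASNS, 38.8% of IGF2 and 35.6% of TAGLN.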

How the data were processed

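RNA-seq libraries of 143B spheres (OSC, n = 3) and adherent cells (non-OSC, n = 3) were compared. Per the labels, the authors extracted total RNA, prepared libraries with a NEBNext Ultra kit and used Trimmomatic 0.39, FastQC 0.12.1, STAR 2.7.11a and RSEM 1.3.3 with GRCh38.p14. The annotation and strand setting are not given in the sources used here. The deposited values are expected counts per gene (6.85% not whole), which were rounded. The columns, named for 2D and 3D culture, were taken as non-OSC and OSC and matched by replicate number. All 62700 identifiers were named from GENCODE 44.

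Genes passing edgeR's filterByExpr were normalized by TMM and tested with the quasi-likelihood test (edgeR 4.0.16, R 4.3.3) with Benjamini-Hochberg adjustment over all genes, threshold 0.05. Fold changes are those of edgeR's fit, and a prior count of 2 entered only the log2 CPM of the principal components and the check of replicate pairing. Depth lay between 7992499 and 10495051 counts. On simulated counts for this comparison, 85 of 100 genes changed 2-fold and 98 of 100 changed 4-fold were recovered with 16 false calls. Only these genes differed in the simulation, a far smaller share than the 64.2% called in the data, so its rates may not carry over. Genes were named as the largest rises and falls (at least 10 CPM, no overlap), in CPM, among lncRNAs and within each list, and further list members were chosen after their values were seen. The members and lists were chosen with earlier results of these data known. Alternatives were DESeq2 1.42.0, library-size scaling, other count filters, a replicate block and leaving out each library. The share of 75-base stretches of a gene found in transcripts of other genes was computed from GENCODE. Promoters are from RefSeq. Figures were drawn with matplotlib 3.10.9. XIST and Y-linked genes, and the other 9 libraries, were not analysed here.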

Additional observations from a re-analysis of the deposited data

How the results depend on the processing

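The number of genes that differed lay between 8389 and 9456 under all alternatives (9179 as reported), with 8389 by DESeq2, 9147 with scaling by library size alone, 9264 without a filter on low counts and 8632 with at least 10 counts in every library. The fits that left out 1 library called 8552 to 9022, with 4360 to 4600 higher and 4192 to 4422 lower in OSC. At a fold of at least 2 these fits called 2291 to 2315, with 1470 to 1527 higher and 788 to 821 lower. With at least 10 counts in every library, the genes at least 2-fold lower numbered 525 instead of 788, a filter that removes genes near 0 in one format. With a replicate block, 9456 genes were called. The deviations of libraries of the same number from their group means had correlations of 0.073, -0.009 and 0.053. OSC replicates 1 and 3 correlated most with their own number, whereas OSC replicate 2 correlated more with non-OSC replicate 3 (0.022). With 3 libraries of a format, these values cannot decide whether the numbers pair the libraries. Among named genes the block ended the call of TUBA1B-AS1 and made those of CCND1, NQO1 and SCD.

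Of 4161 values of 380 named genes under these alternatives, 4100 kept their direction and side of the threshold, 50 lost the call, 11 gained it and 0 reversed a called direction. The changes were in 17 genes, among them RPL39L, COL27A1 and SEC61B. List medians moved by less than the spread between replicates in 555 of 616 values, and 10 changed sign, in the Notch, metallothionein and carrier lists. Scaling by library size alone moved the median of all genes from -0.01 to 0.03. Depth limits genes at a few counts, such as ANKRD1 in OSC, and the 3 libraries of a format allow no p under 0.1 in an exact permutation test of a single gene. Culture format, medium and serum were changed together and cannot be told apart.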

Other observations

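Enzymes that make nucleotides and one-carbon units fell in 20 of 23, with none higher and a median log2 fold change of -0.77. This list and the others of this section were chosen after the values were seen, and their counts are a description. The lists described further above were chosen with earlier results of these data known, so the same holds for them. DHODH (-1.28), the mitochondrial step of pyrimidine synthesis, CTPS1 (-1.17), which makes CTP, and SHMT2 (-1.23), which takes a carbon unit from serine, fell most. MTHFD1 had 207, 210.2 and 195 CPM in OSC and 448, 429 and 448 CPM in non-OSC (-1.11). Translation factors fell in 16 of 16 (median -0.65), from -0.34 for EIF2S1 to -1.03 for PABPC4, a poly(A)-binding protein.

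MYC itself did not pass the test (9.73, 14.4 and 11.8 CPM in OSC and 11.4, 13.9 and 16.5 CPM in non-OSC), and its libraries overlapped. Of 11 genes of MYC, MAX and their relatives, 6 rose, 2 fell and 3 did not pass (median 0.48). MXD4, which competes with MYC for the partner MAX, had 68.0, 76.5 and 76.5 CPM against 11.9, 12.1 and 10.1 CPM (2.69), and MXI1 (1.99), MXD1 (1.93), MNT (1.6), MXD3 (0.56) and MLXIP (0.48) rose, while MAX did not pass (-0.06) and MLX (-0.37) and MGA (-0.33) fell.

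Genes best known from neurons rose in 13 of 22 and fell in 2. The adhesion molecule L1CAM had 87.5, 87.6 and 88.5 CPM in OSC and 7.14, 6.13 and 5.18 CPM in non-OSC (3.83), the neuron-specific tubulin TUBB3 244, 238 and 270.2 CPM against 74.8, 92.9 and 93.5 CPM (1.53), and the tau gene MAPT (3.61), NRXN3 (3.39) and ENO2 (2.45) rose. CNTN1 (-2.61) and STMN3 (-1.35) fell, and NCAM1 (0.03) and SNAP25 (0.29) did not pass.

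Of 11 prostaglandin genes tested, 3 rose, 4 fell and 4 did not pass. These counts are near the shares over all genes tested, of which 32.5% rose and 31.7% fell. Those that rose were PTGS2, described above, the phospholipase PLA2G4A (1.49), which frees arachidonic acid, and the receptor PTGFR (1.82). The terminal synthase PTGES had 3.08, 3.14 and 4.11 CPM in OSC and 15.9, 19.3 and 16.5 CPM in non-OSC (-2.32), and the carrier SLCO2A1 (-3.02), PTGES2 (-0.8) and PTGES3 (-0.47) fell too.

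Carriers of amino acids and sugars were divided, 10 higher and 7 lower of 23, where 32.5% of all genes tested rose and 31.7% fell. Their median of -0.03 turned positive without OSC replicate 3 (0.01) or non-OSC replicate 1 (0.02). SLC38A2, a carrier of small neutral amino acids, had 943, 847 and 867 CPM in OSC and 419.7, 369 and 375 CPM in non-OSC (1.19), whereas the glutamine carrier SLC1A5 (-0.9) and the glutamate carrier SLC1A3 (-1.77) fell. Of the genes that changed at least 2-fold, 280 of the 1450 that rose (19.3%) and 115 of the 788 that fell (14.6%) belong to a list other than those of this section. Most of the strongly changed genes are therefore outside those earlier lists.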
